A study of Arabidopsis thaliana with 60 samples.

Results

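Leaf 4 of Arabidopsis thaliana, collected when it was 1 cm long, was compared with leaves 1 + 2, the first pair of true leaves, in the accession Col-0. The groups were taken from the labels of the arrays, and 6 of the 60 arrays of the series entered the comparison, 3 for leaf 4 and 3 for leaves 1 + 2. The series profiled total RNA of leaves of many positions, ages and growth conditions on single-colour arrays in 20 groups of 3. Both sets of plants grew on soil in continuous light at 23 °C and 65% humidity. The labels give no length for leaves 1 + 2 and no age for either group, and they do not say how many plants or leaves went into an array. The labels of all 3 leaf 4 arrays carry a remark that the tissue had soil on it, which those of leaves 1 + 2 do not. Leaf 4 of 1 cm was also profiled in a line labelled gl1T (3 arrays, without that remark), and its values stand beside those of Col-0 where they help.

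Leaves of a rosette form one after another at the shoot apex. A leaf first grows by cell division, which lasts longest near its base and among the precursors of stomata, and later by cell expansion, while the chloroplasts mature. Dividing cells make many ribosomes, expanding cells loosen and rebuild their walls, and leaf cells also switch on calcium, wound and defence genes within minutes of being touched or cut.

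Green leaf markers were bright in both groups. The summed signal of 12 nuclear genes of the photosystems, the plastid ATP synthase and the Calvin cycle was 37389 to 40169 in leaf 4 and 44884 to 51154 in leaves 1 + 2. Markers of other tissues were dim. CLV3, a peptide of the shoot apex, read 1.72 to 2.15 in leaf 4 and 1.76 to 2.59 in leaves 1 + 2, and the root hair expansin EXPA7 read 6.20 to 22.1 in leaf 4 and 12.8 to 22.2 in leaves 1 + 2. The seed genes ICL and OLEO3 stayed at or below 19.8 on all 6 arrays.

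Arrays of leaf 4 correlated with each other at r of 0.989 to 0.990, those of leaves 1 + 2 at 0.985 to 0.988, and arrays of different groups at 0.952 to 0.954. The median signal was 35.6 to 36.6 in leaf 4 and 32.2 to 33.7 in leaves 1 + 2. For actin, the control probe sets near both ends of the transcript gave a 3'-to-5' ratio, a sign of RNA integrity, of 3.95 to 8.34 in leaf 4 and 2.12 to 4.86 in leaves 1 + 2. For ubiquitin it was 3.70 to 3.98 in leaf 4 and 3.08 to 3.59 in leaves 1 + 2, without overlap. For GAPDH this ratio was 1.08 to 1.41 in leaf 4 and 1.08 to 1.36 in leaves 1 + 2. The part of these values and of the soil in the differences given here was not tested. In the following, signals are MAS5 intensities given for each array, differences are leaf 4 minus leaves 1 + 2 on the scale log2(signal + 6.14) ± SE, and the words rose and fell are kept for genes with an adjusted p below 0.05 and a difference of at least 1 in either direction. Since nothing in the labels says that the arrays of one group hold RNA of different plants, the p-values reflect the spread among arrays alone, which may be technical. In whole leaves, fewer cells of a type and less RNA per cell cannot be told apart.

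Of 15808 probe sets bright enough to be tested, 689 were called (4.36%), of which 266 rose (1.68%) and 423 fell (2.68%) in leaf 4. The arrays of the groups did not overlap for 688 of these 689 probe sets, and for 48.7% of all tested ones. The decreases were the larger ones, since 108 probe sets fell by at least 2 on the log2 scale and 14 rose by as much. At any size, the adjusted p was below 0.05 for 23.5% of the tested probe sets in the positive and 14.4% in the negative direction. The median difference of all tested probe sets was 0.09, and 9551 of the 15808 had a positive difference. When the arrays were scaled to a common median signal, that median shifted by -0.11, to -0.03, and 187 probe sets rose and 501 fell, so that increases made up 27.2% of the calls instead of 38.6%. A single gene is named in the annotation for 351 of the 689 probe sets, of which 141 rose and 210 fell. Most of these are known here only by their locus number, and no role is given for them.

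**Figure D1:**
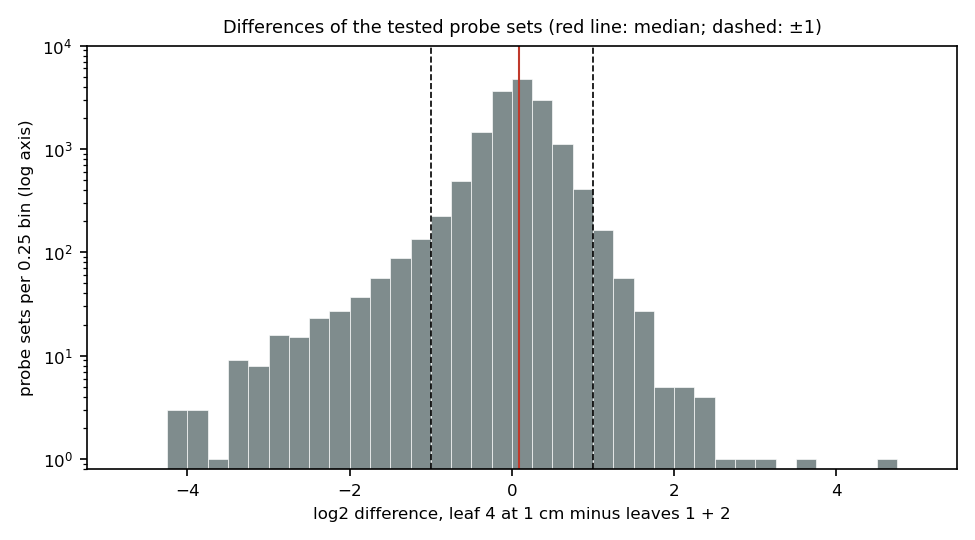
Number of tested probe sets (log axis) by log2 difference, leaf 4 at 1 cm minus leaves 1 + 2, in bins of 0.25; the red line is the median of 0.09 and the dashed lines stand at -1 and 1. The distribution reaches farther to the left, with 108 probe sets that fell by at least 2, than to the right, where 14 rose by as much.

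The clearest loss in leaf 4 was among the genes that plants switch on within minutes of touch, wounding or contact with microbes. Of 9 measured members of this list, 6 fell and none rose, while 2.68% of all tested probe sets fell. The median difference was -1.44, against 0.09 for all tested probe sets. The list was written with earlier results of these data known, so its count may be partly built in. The summed signal of the 9 was 246 to 279 in leaf 4 and 1583 to 1654 in leaves 1 + 2. STZ, also called ZAT10, is a zinc finger repressor of stress-responsive transcription. Its signal was 64.1, 67 and 78.2 in leaf 4, against 804, 819 and 820.0 in leaves 1 + 2 (difference -3.44 ± 0.085, adjusted p = 2.4e-37). CML38, a calmodulin-like calcium sensor induced by wounding, read 9.74, 16.4 and 9.17 in leaf 4, against 329.8, 294 and 305 in leaves 1 + 2. With -4.16 ± 0.13 (adjusted p = 2.7e-32), this was the largest decrease of any named gene on the scale used here, though by the ratio of mean signals AT1G33760, near 0 in leaf 4, came first. Its relative CML37 was dim in both groups, at 0.996, 2.71 and 2.20 in leaf 4, against 13.2, 19.6 and 14.9 in leaves 1 + 2 (-1.44 ± 0.19, adjusted p = 2.0e-08), and -0.61 with a pseudocount 4 times larger. ORA47, an AP2/ERF factor that turns on genes of jasmonate synthesis, had 106, 91.4 and 113 in leaf 4, against 294, 353 and 313 in leaves 1 + 2 (-1.57 ± 0.10, adjusted p = 7.7e-19). The groups of arrays lay apart for all 4 of these genes, as for 688 of the 689 called probe sets and 48.7% of all tested ones.

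Other members of the same list are the U-box ubiquitin ligases that dampen immune signalling. PUB23 read 14.4, 10.6 and 12.3 in leaf 4, against 65.8, 68.6 and 64.6 in leaves 1 + 2 (-1.97 ± 0.18, adjusted p = 3.4e-13). PUB22 fell less, with 14.6, 14.3 and 19.5 in leaf 4, against 34.8, 46.8 and 41.3 in leaves 1 + 2 (-1.08 ± 0.18, adjusted p = 1.7e-06), and missed the threshold of 1 at -0.69 with the larger pseudocount and at -0.99 without replicate B of leaves 1 + 2. The remaining 3 members did not pass. These were PUB24 with -0.27 ± 0.10, the calmodulin-like gene CML41 with 0.44 ± 0.16 and AT1G76640, a locus at or near 0 in both groups, with -0.0032. Among the 11 measured U-box and ATL ubiquitin ligases, PUB22 and PUB23 were the members that fell and none rose.

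The following genes outside this list, singled out after their values had been seen, also fell. OPCL1, a ligase of jasmonate synthesis, read 117, 114 and 114 in leaf 4, against 437, 459.9 and 449 in leaves 1 + 2 (-1.91 ± 0.067, adjusted p = 2.2e-30). AR781 had 48.9, 69.7 and 58 in leaf 4, against 348, 379.8 and 368 in leaves 1 + 2 (-2.53 ± 0.077, adjusted p = 4.1e-33). The calmodulin-like CML23 had 28.2, 12.3 and 14.2 in leaf 4, against 63.9, 62.1 and 61 in leaves 1 + 2 (-1.54 ± 0.20, adjusted p = 5.8e-09). SRC2, a membrane-bound protein whose soybean relative responds to cold, had 375, 400.2 and 368 in leaf 4, against 1442, 1389 and 1376 in leaves 1 + 2 (-1.86 ± 0.12, adjusted p = 3.0e-19). In each of these, every array of leaf 4 lay below every array of leaves 1 + 2. The groups did not overlap for 48.7% of all tested probe sets either.

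Other signalling lists held 1 or 2 decreases each. Among 8 measured receptors, kinases and WRKY factors of immune signalling, 1 fell and none rose, and their median difference was -0.09. WRKY22, a factor downstream of the flagellin receptor, read 38, 27.7 and 30.5 in leaf 4, against 119.7, 125 and 116 in leaves 1 + 2 (-1.73 ± 0.11, adjusted p = 1.4e-19). WRKY53, a factor of defence and leaf senescence, missed the size threshold with 18.1, 18.2 and 16.8 in leaf 4, against 38.9, 40.4 and 43.2 in leaves 1 + 2 (-0.98 ± 0.084). Of 19 tetraspanins and IQD proteins, 2 fell and none rose, with a median of -0.05. TET8, a tetraspanin of plant exosomes, had 266, 307 and 306 in leaf 4, against 1152, 1166 and 1147 in leaves 1 + 2 (-1.96 ± 0.075, adjusted p = 8.6e-29). TET9 was dim, with 5.60, 2.36 and 8.54 in leaf 4, against 19.6, 18.9 and 15.4 in leaves 1 + 2 (-1.08 ± 0.26, adjusted p = 0.00058), and its difference was -0.50 with a pseudocount 4 times larger and -0.87 without replicate B of leaf 4, neither of them a call. RALFL22, a secreted peptide of the rapid alkalinization family, had 101, 95.8 and 103 in leaf 4, against 244, 264 and 269 in leaves 1 + 2 (-1.32 ± 0.080, adjusted p = 3.8e-20). It was the 1 of 10 measured members of the list of RALF and CLE peptides that fell, and none rose. The list also holds STOMAGEN, a peptide that promotes stomata and belongs to neither family, with a positive difference. The list's median was 0.36, and 6 of the 10 had a positive difference with an adjusted p below 0.05, 60% against 23.5% of all tested probe sets, or 4 after median scaling.

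**Figure D2:**
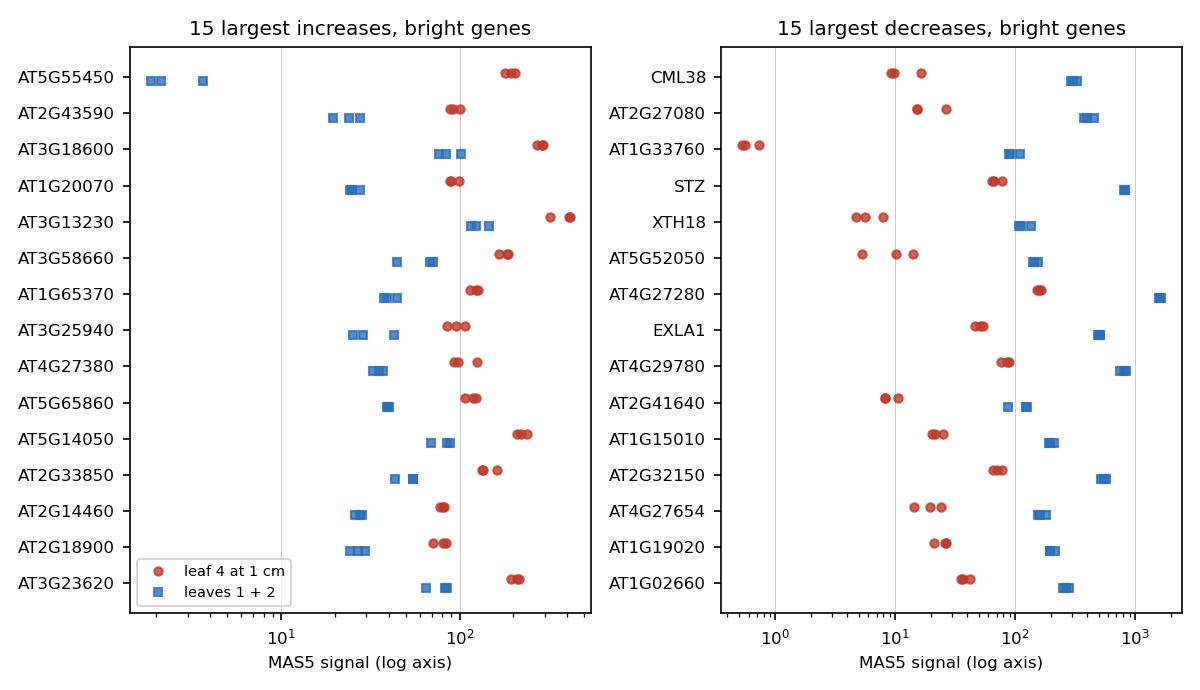
MAS5 signal on each array (log axis) of the 15 named genes with the largest increases (left) and decreases (right) among those bright enough to exceed the 60th percentile of the array in at least the higher group, red circles for the 3 arrays of leaf 4 at 1 cm and blue squares for the 3 of leaves 1 + 2. The groups do not overlap for any of the 30 genes, which the rule for choosing them required, and the gap is widest for AT5G55450 among the increases and AT1G33760 among the decreases.

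The 15 largest decreases of named genes, which all met the brightness limit, ran from -4.16 to -2.63, with a median of -3.17. Besides CML38, STZ, XTH18, EXLA1 and AT5G52050, annotated as the efflux carrier DTX50, they are loci without a symbol. AT1G33760 was at or near 0 in leaf 4, with 0.733, 0.528 and 0.561 in leaf 4, against 89.3, 91.5 and 110.3 in leaves 1 + 2 (-3.93 ± 0.12, adjusted p = 1.5e-32). AT2G27080 read 15.2, 26.3 and 15.2 in leaf 4, against 378, 456 and 401 in leaves 1 + 2 (-4.08 ± 0.21, adjusted p = 1.8e-23). DTX50 had 5.26, 14 and 10.1 in leaf 4, against 144, 141 and 155 in leaves 1 + 2 (-3.30 ± 0.15, adjusted p = 1.9e-25), and so was close to absent in leaf 4. AT4G27280 was among the brighter genes of leaves 1 + 2, with 157, 153 and 165 in leaf 4, against 1646, 1607 and 1572 in leaves 1 + 2 (-3.29 ± 0.087, adjusted p = 5.5e-36). AT4G29780 had 76.3, 88.5 and 86.4 in leaf 4, against 841, 816 and 750.3 in leaves 1 + 2 (-3.17 ± 0.075, adjusted p = 5.1e-38). The others in this group of 15 were AT2G41640 (-2.95 ± 0.14), AT1G15010 (-2.86 ± 0.11), AT2G32150 (-2.84 ± 0.084), AT4G27654 (-2.77 ± 0.16), AT1G19020 (-2.76 ± 0.16) and AT1G02660 (-2.63 ± 0.090).

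Wall-loosening genes had more negative than positive differences. Of 19 measured expansins, expansin-like proteins, xyloglucan enzymes and EXO, 4 fell and none rose, and the median difference was -0.43. At any size, 8 of the 19 were negative with an adjusted p below 0.05, 42.1% against 14.4% of all tested probe sets. In the positive direction 4 were, 21.1% against 23.5%. XTH18, a xyloglucan endotransglucosylase, read 4.72, 5.59 and 7.97 in leaf 4, against 111.1, 137 and 107 in leaves 1 + 2 (-3.35 ± 0.24, adjusted p = 5.7e-17). The expansin-like EXLA1 read 53.8, 51.3 and 46.6 in leaf 4, against 495, 509 and 509.9 in leaves 1 + 2 (-3.17 ± 0.084, adjusted p = 5.5e-36). EXO, a brassinosteroid-responsive wall protein that promotes leaf growth, read 348, 287 and 329 in leaf 4, against 1568, 1605 and 1776 in leaves 1 + 2 (-2.34 ± 0.071, adjusted p = 2.6e-33). For each of these 3 every array of leaf 4 lay far below every array of leaves 1 + 2, while 48.7% of all tested probe sets had no overlap. EXLA2 fell by 1.05 (adjusted p = 4.2e-07), with 32, 21.2 and 32 in leaf 4, against 62.5, 68 and 62.6 in leaves 1 + 2, but by 0.75 with the larger pseudocount and by 0.89 without replicate B of leaf 4. Of the expansins proper none was called. EXPB3 had 69.8, 71.3 and 67.2 in leaf 4, against 32.2, 40.4 and 39.7 in leaves 1 + 2 (0.80 ± 0.11), EXPA15 had a difference of 0.71 ± 0.16 and EXPA4 one of 0.59 ± 0.11, all short of 1. Among 12 measured genes of cell wall synthesis and wall surface proteins, the pectin methylesterase PME41 alone fell, with 51.6, 49.9 and 51.6 in leaf 4, against 200.4, 207 and 199 in leaves 1 + 2 (-1.86 ± 0.10, adjusted p = 3.2e-23). ARL, an ARGOS-like gene of organ growth singled out after its values had been seen, read 41.9, 48.3 and 44.2 in leaf 4, against 117, 103 and 90.7 in leaves 1 + 2 (-1.10 ± 0.11, adjusted p = 1.6e-11), and -0.88 with the larger pseudocount.

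**Figure D3:**
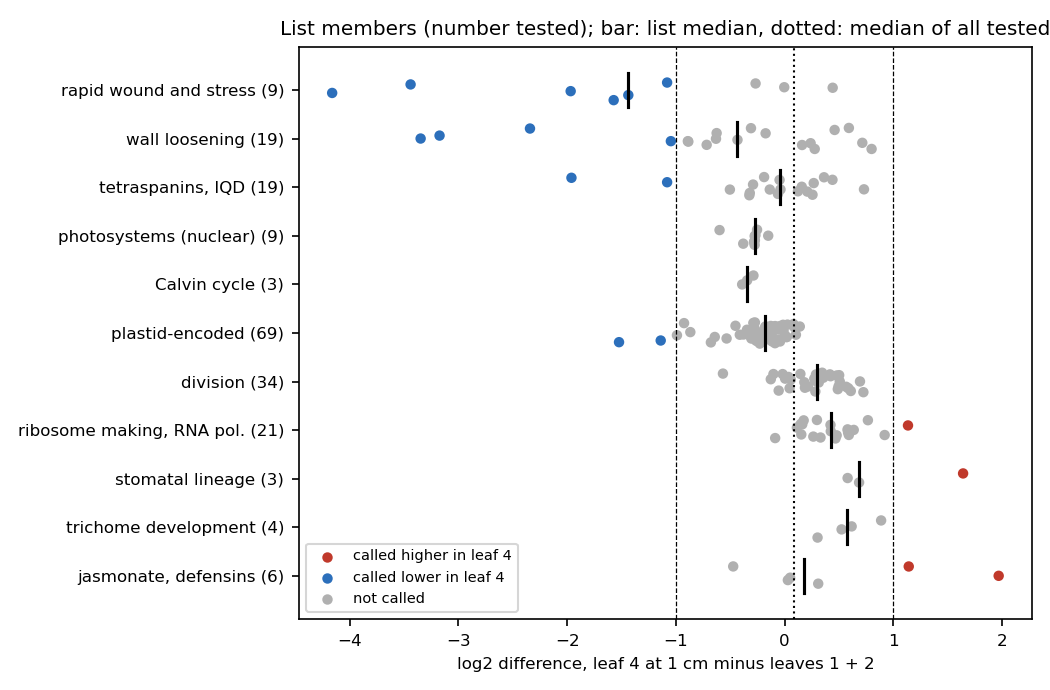
Log2 difference, leaf 4 at 1 cm minus leaves 1 + 2, of each measured member of 11 gene lists, with the number tested in brackets; black bars are list medians, the dotted line the median of all tested probe sets (0.09) and the dashed lines -1 and 1. Members called higher are red, called lower blue and not called grey; the rapid wound and stress genes reach farthest to the left, and SPCH and PDF1.2 farthest to the right among these lists.

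Photosynthesis genes had small negative differences in leaf 4. None of 9 members of the nuclear photosystem and antenna list, which includes ATPC1 of the plastid ATP synthase, passed the size threshold. Their differences ran from -0.60 to -0.15 with a median of -0.28. The adjusted p was below 0.05 for 7 of the 9, all in the negative direction, 77.8% against 14.4% of all tested probe sets. After median scaling all 9 were negative with an adjusted p below 0.05. After quantile normalization 8 of the 9 were negative, ATPC1 was positive at 0.04, and 2 had an adjusted p below 0.05. LHCB4.3, an antenna protein of photosystem II, had 677, 716 and 768 in leaf 4, against 1113, 1039.8 and 1125 in leaves 1 + 2 (-0.60 ± 0.087). The Calvin cycle enzymes RCA, PRK and SBPASE differed by -0.29 ± 0.088, -0.39 ± 0.066 and -0.34 ± 0.070, and PRK read 3043, 2841 and 3223 in leaf 4, against 3762, 3945 and 4232 in leaves 1 + 2. Chlorophyll synthesis enzymes showed no common direction, with a median difference of 0.00 over 9 genes, of which none was called.

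Of 69 plastid-encoded genes, 2 fell and none rose, and the median was -0.18. That share of decreases is near the 2.68% of all tested probe sets that fell. The ndhG gene, for a subunit of the plastid NDH complex, read 306, 251 and 297 in leaf 4, against 601, 646 and 649.5 in leaves 1 + 2 (-1.14 ± 0.15, adjusted p = 1.2e-08). The rps14 gene, for a protein of the plastid ribosome, read 87.6, 96.4 and 75.2 in leaf 4, against 324, 248 and 215 in leaves 1 + 2 (-1.52 ± 0.19, adjusted p = 3.8e-09). At any size, 10 of the 69 had an adjusted p below 0.05, all negative, a share near the 14.4% of all tested probe sets. That count was 29 after median scaling, with 4 genes called lower, and 6 after quantile normalization, with 2 called lower. None of 21 probe sets of mitochondrion-encoded genes was called, with a median of -0.16, and some of these probe sets share a gene.

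Pigment and defence metabolite genes changed singly. DFR, the dihydroflavonol reductase on the way to anthocyanins, was 1 of 5 measured flavonoid genes and read 27.4, 34.9 and 34.7 in leaf 4, against 102, 121 and 114 in leaves 1 + 2 (-1.62 ± 0.18, adjusted p = 1.7e-10). Of the others, UF3GT, an anthocyanin glycosyltransferase, just missed the size threshold with 20.9, 20.0 and 19.9 in leaf 4, against 51.5, 40.5 and 48.4 in leaves 1 + 2, while UGT78D1, a flavonol glycosyltransferase, had 0.67 ± 0.10, AT4G14090 had -0.37 ± 0.22 and UGT78D2 had 0.20 ± 0.12. NAI2, a protein of the ER bodies that hold myrosinases, read 29.5, 27.9 and 23.7 in leaf 4, against 71.5, 69.2 and 71.3 in leaves 1 + 2 (-1.22 ± 0.13, adjusted p = 6.9e-11). The jacalin-related lectin JAL34 had 24.8, 25.4 and 29.3 in leaf 4, against 63.3, 63.6 and 62.7 in leaves 1 + 2 (-1.09 ± 0.14, adjusted p = 3.3e-09). These were the 2 of 6 measured members of the indole glucosinolate and breakdown list that fell, and none rose. With the larger pseudocount both missed the size threshold, at -0.89 for NAI2 and -0.78 for JAL34. The glucosinolate transporter GTR1, singled out after its values had been seen, had 199.8, 175 and 209 in leaf 4, against 477, 421 and 458 in leaves 1 + 2 (-1.19 ± 0.069, adjusted p = 6.8e-21).

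The largest increase of a named gene belonged to AT5G55450, a locus without a symbol that was near 0 in leaves 1 + 2. It read 179.8, 206 and 194 in leaf 4, against 1.86, 3.64 and 2.12 in leaves 1 + 2 (4.53 ± 0.15, adjusted p = 3.0e-31). The increases given next are the 15 largest among named genes that exceeded the 60th percentile of the array in the higher group, with a median of 1.44. Dimmer genes that rose more than most of them, namely CHI, WSD1, AGL24, PDF1.2 and SPCH, are described further on. The one after AT5G55450 within this limit was AT2G43590, with 91.6, 88.1 and 101 in leaf 4, against 27.8, 24 and 19.6 in leaves 1 + 2 (1.74 ± 0.18, adjusted p = 5.7e-12). AT3G18600 had 292, 273 and 293 in leaf 4, against 83.7, 76.3 and 102 in leaves 1 + 2 (1.65 ± 0.12, adjusted p = 1.2e-16). AT3G13230, the brightest of the 15, had 322, 408 and 416 in leaf 4, against 146, 116 and 123.2 in leaves 1 + 2 (1.53 ± 0.10, adjusted p = 1.2e-19). The arrays of the groups lay apart in each case, which the rule for choosing the 15 required. The rest of the 15 were AT1G20070 (1.63 ± 0.17), AT3G58660 (1.48 ± 0.14), AT1G65370 (1.45 ± 0.12), AT3G25940 (1.44 ± 0.18), AT4G27380 (1.43 ± 0.13), AT5G65860 (1.42 ± 0.13), AT5G14050 (1.41 ± 0.12), AT2G33850 (1.39 ± 0.21), AT2G14460 (1.37 ± 0.14), AT2G18900 (1.36 ± 0.17) and AT3G23620 (1.35 ± 0.11).

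Genes for making ribosomes and RNA polymerases had mostly positive differences. Of 21 measured members, 1 rose and none fell, 20 had a positive difference, and the median was 0.42 against 0.09 for all tested probe sets. Among all 15808 tested probe sets, 9551 had a positive difference. At any size, 13 of the 21 had an adjusted p below 0.05 in the positive direction, 61.9% against 23.5% of all tested probe sets, and after scaling to the median signal 19 were positive and 10 passed. NRPA1, the largest subunit of RNA polymerase I, which makes ribosomal RNA, read 80.5, 68 and 78.6 in leaf 4, against 31.1, 27.7 and 34.6 in leaves 1 + 2 (1.13 ± 0.13, adjusted p = 5.8e-10), or 0.85 and no call with the larger pseudocount. The second subunit of that enzyme, NRPA2, had 169.7, 149 and 166 in leaf 4, against 94.6, 93 and 89.2 in leaves 1 + 2 (0.77 ± 0.088). The nucleolar proteins YAO, IMP4 and PRH75 differed by 0.92 ± 0.11, 0.64 ± 0.089 and 0.58 ± 0.089, short of 1. Their arrays did not overlap between the groups, as was so for 48.7% of all tested probe sets. DIM1B was the member with a negative difference, -0.09 ± 0.15. Outside the list, AT5G14520, annotated as Pescadillo, a ribosome assembly factor, and RBL (REBELOTE) were singled out after their values had been seen. Pescadillo read 435, 441 and 386 in leaf 4, against 189, 182 and 176 in leaves 1 + 2 (1.18 ± 0.069, adjusted p = 8.7e-21). RBL read 97.5, 89.3 and 94.9 in leaf 4, against 33.8, 50.3 and 39.7 in leaves 1 + 2 (1.09 ± 0.15, adjusted p = 5.8e-08), and its difference was 0.85 with the larger pseudocount, 0.98 after median scaling and 0.97 without replicate A of leaves 1 + 2.

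Cell division genes had smaller differences, most of them positive. None of 34 measured genes of mitosis, replication and chromatin was called, 29 had a positive difference, and the median was 0.30. A positive difference was also that of 9551 of the 15808 tested probe sets. In the positive direction 12 of the 34 had an adjusted p below 0.05, 35.3% against 23.5% of all tested probe sets, and 1 in the negative direction. After scaling to the median signal 25 were positive and 10 passed. The largest difference was that of the histone H2B gene HTB1, with 229.8, 192 and 214 in leaf 4, against 129, 114 and 134.4 in leaves 1 + 2 (0.72 ± 0.11). HTB2, another H2B gene, had 0.61 ± 0.10, and the mitotic kinase AUR1 had 118, 100.1 and 94.6 in leaf 4, against 80.3, 67.4 and 81.5 in leaves 1 + 2 (0.42 ± 0.12). SKP2A, an F-box protein of cell cycle control, ran the other way with -0.57 ± 0.10. The cytokinin response regulators ARR15 and RR16 differed by 0.90 ± 0.21 and 0.79 ± 0.14, neither of which reached the size threshold.

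Regulators of stomata and trichomes, the specialised epidermal cells of a leaf, had positive differences in leaf 4, of which 1 passed. The sign alone was shared by 9551 of the 15808 tested probe sets. SPCH, the bHLH factor that starts the stomatal lineage, read 45.1, 45.7 and 47 in leaf 4, against 3.68, 18.4 and 13.2 in leaves 1 + 2 (1.64 ± 0.24, adjusted p = 1.9e-07). The arrays of leaf 4 lay within 2 signal units of each other, while those of leaves 1 + 2 were scattered at dim levels, and with a pseudocount 4 times larger the difference was 0.98. FMA, which acts in the last step of guard cell formation, had 102, 94.3 and 92 in leaf 4, against 59.8, 58.9 and 53.4 in leaves 1 + 2 (0.69 ± 0.12), and STOMAGEN, a peptide that promotes stomata, had 280.2, 289 and 290.0 in leaf 4, against 203, 193 and 174 in leaves 1 + 2 (0.58 ± 0.11). Both had a difference below 1 and no overlap between groups, the latter as for 48.7% of all tested probe sets. MUTE, the factor between SPCH and FMA, was too dim to be tested. Of 4 trichome regulators none was called. TRY, an inhibitor of trichome formation, had 56.3, 45.3 and 36.5 in leaf 4, against 25.1, 19 and 21.3 in leaves 1 + 2 (0.89 ± 0.21), GIS had 0.62 ± 0.14, SIM had 0.52 ± 0.15 and ATMYC1 had 0.30 ± 0.15.

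AGL24, a MADS-box factor that promotes flowering, was the 1 of 13 measured MADS-box factors that rose. Its signal was 39.6, 32.2 and 25.7 in leaf 4, against 6.03, 0.957 and 3.43 in leaves 1 + 2 (2.03 ± 0.19, adjusted p = 8.2e-13). WSD1, a wax ester synthase of the cuticle, read 39.8, 58.2 and 49.7 in leaf 4, against 3.87, 7.24 and 4.26 in leaves 1 + 2 (2.30 ± 0.23, adjusted p = 3.3e-12). It was the 1 of 5 measured lipid transfer and cuticle genes that rose, while FDH, an enzyme of epidermal fatty acid elongation, had -0.53 ± 0.084. The serine carboxypeptidase-like genes scpl35 and SCPL34 went opposite ways. The first read 251, 212 and 265 in leaf 4, against 107, 99.3 and 95.7 in leaves 1 + 2 (1.22 ± 0.090, adjusted p = 1.1e-16) and the second 62.3, 57.2 and 53.9 in leaf 4, against 148, 141 and 129 in leaves 1 + 2 (-1.19 ± 0.11, adjusted p = 4.6e-13), which came to -0.99 with the larger pseudocount.

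Some genes for defence proteins rose in leaf 4, unlike the rapid response genes. Of 6 measured jasmonate and defensin genes 2 rose and none fell, while 1.68% of all tested probe sets rose. PDF1.2, a jasmonate- and ethylene-responsive defensin, had 55.7, 57.7 and 54 in leaf 4, against 8.38, 7.68 and 13.6 in leaves 1 + 2 (1.97 ± 0.14, adjusted p = 1.2e-17). PDF1.2b had 49, 40.6 and 37.3 in leaf 4, against 13.8, 21.2 and 13 in leaves 1 + 2 (1.14 ± 0.20, adjusted p = 4.2e-06), though its probe set carries a suffix for probes shared with related genes, so the pair may not be told apart. With the larger pseudocount PDF1.2b differed by 0.72 and was not called. AT2G43570, annotated under the symbol CHI as a putative chitinase and singled out after its values had been seen, read 37.2, 35.9 and 28.9 in leaf 4, against 4.43, 1.10 and 0.842 in leaves 1 + 2 (2.30 ± 0.14, adjusted p = 4.1e-20). Of 14 measured cytochrome P450 genes 2 rose and none fell, beside the same 1.68% of all tested probe sets. These were CYP71B22 with 106, 112 and 96 in leaf 4, against 39.3, 39.7 and 36.9 in leaves 1 + 2 (1.31 ± 0.11, adjusted p = 8.5e-15) and CYP71B23 with 16.8, 15.1 and 15.1 in leaf 4, against 5.02, 4.31 and 4.08 in leaves 1 + 2 (1.04 ± 0.12, adjusted p = 1.8e-10). CYP71B23 was dim in both groups and was not called with the larger pseudocount, where it differed by 0.47, nor with other scalings, where it differed by 0.98 after scaling to the median signal and by 0.92 after quantile normalization.

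The levels of these genes were also compared with the other groups of the series. The genes were chosen for their difference between leaf 4 and leaves 1 + 2, so a low or high place of leaf 4 is partly built in, and the counts are descriptions without a test. For each of the 15 largest decreases, the mean of leaf 4 lay below the means of all 6 rosette leaves from leaf 2 to leaf 12, while leaves 1 + 2 lay above all of them for 9 genes, among them for 5 and below for 1. STZ averaged 69.7 in leaf 4 and 814 in leaves 1 + 2, against 635 to 872 in the 6 rosette leaves. Only the short-day rosettes, with 30.5 to 52.6, had less of it than leaf 4. The summed signal of the 9 rapid response genes, 246 to 279 in leaf 4, was also low in gl1T leaf 12, with 243 to 307. In the short-day sets 87, 89 and 90 it was 299 to 326, 200 to 203 and 206 to 225. CML38 was lowest of all 20 groups in leaf 4, at 11.8, followed by gl1T leaf 12 with 14.2, which is within the spread of these arrays. EXLA1 averaged 50.6 in leaf 4, 505 in leaves 1 + 2 and 394 to 1793 in the rosette leaves.

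For 12 of the 15 largest increases within the brightness limit, leaf 4 lay above all 6 rosette leaves, and for the other 3 it lay among them. Leaves 1 + 2 lay among the rosette leaves for 10 of the 15 and below them for 5. AT3G13230 averaged 382 in leaf 4, second only to the short-day rosettes of set 90, and 128 in leaves 1 + 2. SPCH averaged 45.9 in leaf 4 and 11.7 in leaves 1 + 2, against 1.61 in rosette leaf 2 and 33.4 in rosette leaf 12. Dimmer genes with larger increases did not all follow this order. AGL24 averaged 32.5 in leaf 4, below all rosette leaves but leaf 2, with 99.1 in rosette leaf 12. PDF1.2 averaged 55.8 in leaf 4 and 999.6 in rosette leaf 4, whereas WSD1 averaged 49.2 in leaf 4, above all 6. AT5G55450 was one of the 3 exceptions among the 15, since it averaged 193 in leaf 4 and 576 in rosette leaf 12, and leaves 1 + 2 had the lowest mean of all 20 groups, 2.54.

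**Figure D4:**
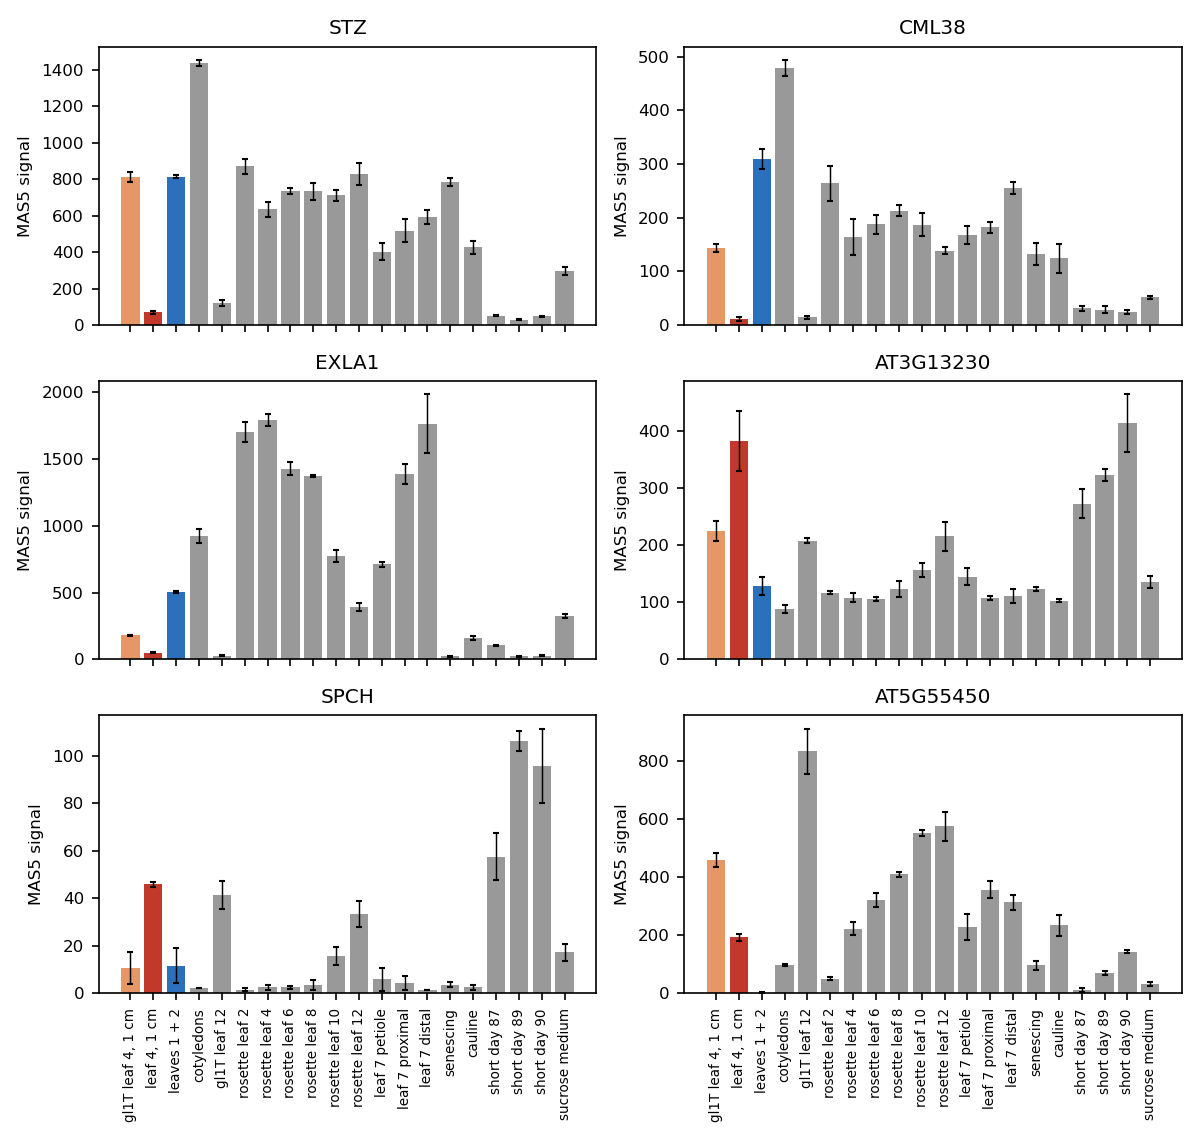
Mean MAS5 signal ± SD (n = 3 arrays) of 6 genes in all 20 groups, with gl1T leaf 4 in orange, Col-0 leaf 4 at 1 cm in red, leaves 1 + 2 in blue and the other groups in grey. STZ is at 812 in gl1T leaf 4, 69.7 in Col-0 leaf 4 and 814 in leaves 1 + 2, whereas AT3G13230 is higher in Col-0 leaf 4 than in either of these.

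Leaf 4 of gl1T, also 1 cm long, did not share all of these values. Its difference from leaves 1 + 2 uses the same leaves 1 + 2 arrays, so the values are given side by side only, and the direct difference, gl1T leaf 4 minus Col-0 leaf 4, was tested in the same fit. Of the 15 largest increases in Col-0, 2 were also called higher in gl1T leaf 4 against leaves 1 + 2. Their median was 0.66, against 1.44 in Col-0. Of the 15 largest decreases, 8 were called lower, with a median of -1.08 against -3.17. Over all tested probe sets, 2.36% were called higher and 1.08% lower in gl1T leaf 4. The genes were chosen by their Col-0 values, so smaller gl1T values are partly built in. The summed signal of the 9 rapid response genes was 1601 to 1638 in gl1T leaf 4, 246 to 279 in Col-0 leaf 4 and 1583 to 1654 in leaves 1 + 2. STZ had 794, 841 and 802 in gl1T leaf 4, and gl1T exceeded Col-0 by 3.44 ± 0.085 (adjusted p = 1.8e-36). CML38 had 146, 135 and 149 in gl1T leaf 4, between the other groups, with 3.08 ± 0.13 for gl1T minus Col-0 (adjusted p = 3.0e-26). ORA47 had 476, 416 and 423 there, above leaves 1 + 2 as well as Col-0 leaf 4. The summed signal of 22 ribosome and RNA polymerase genes was 3089 to 3124 in gl1T leaf 4 and 3878 to 3959 in Col-0 leaf 4. In leaves 1 + 2 it was 3059 to 3098. For 35 division genes the sum was 2595 to 2761 in gl1T leaf 4, 3268 to 3292 in Col-0 leaf 4 and 2545 to 2703 in leaves 1 + 2.

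For XTH18, AT2G43590 and AGL24, no difference between the leaf 4 sets passed the test. XTH18 had 14, 27.1 and 2.43 in gl1T leaf 4, and its gl1T minus Col-0 difference of 0.56 ± 0.24 did not pass (adjusted p = 0.072). AT2G43590 had 86.9, 81.7 and 81.5 in gl1T leaf 4, with -0.15 ± 0.18 for gl1T minus Col-0 (adjusted p = 0.55). AGL24 likewise had 25.7, 24.5 and 31.1 there, and -0.21 ± 0.19 for gl1T minus Col-0 (adjusted p = 0.45). SPCH and WSD1, by contrast, were dim in gl1T leaf 4, with 4.04, 17.8 and 10.2 for SPCH and 8.85, 9.04 and 6.33 for WSD1. The gl1T minus Col-0 difference was -1.72 ± 0.24 for SPCH (adjusted p = 7.4e-08) and -1.95 ± 0.23 for WSD1 (adjusted p = 4.6e-10). The defence genes were higher in gl1T leaf 4. PDF1.2 had 186, 205 and 215 in gl1T leaf 4 (1.75 ± 0.14 for gl1T minus Col-0, adjusted p = 1.0e-15), and the chitinase CHI had 295, 261 and 285 (2.84 ± 0.14, adjusted p = 8.1e-24). AT2G33850 was at or near 0 in gl1T leaf 4, with 0.238, 0.903 and 0.751, against 134.4, 135 and 162 in Col-0 leaf 4 and 55.2, 54.5 and 43.6 in leaves 1 + 2.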

How the data were processed

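Arabidopsis thaliana leaf RNA was measured on 60 single-colour arrays. The deposited intensity values, 1 per probe set and array, are MAS5 signals on a linear scale made by the authors, per the submitters' processing notes. No version or setting of MAS5 is named in the sources used here. On each array the mean signal after trimming 2% at either end was 100.0. Precision is limited by the number of arrays. From 22810 probe sets, 64 controls were left out. Gene names came from the supplied platform annotation, which gives 1 gene for 13513 probe sets and several for 503, while 8730 are unnamed here. RefSeq (TAIR10.1) symbols were matched by gene ID for 13436.

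Signals were taken as log2(signal + 6.14), with the median of the arrays' 20th percentiles as pseudocount, so that differences of dim genes are understated. A probe set was tested if all 3 arrays of some group had it above the 40th percentile of the array. A linear model over 20 groups and 60 arrays was fitted with limma 3.58.1 in R 4.3.3, with a trended empirical Bayes variance on 40 residual degrees of freedom, and p-values were adjusted by Benjamini-Hochberg over all tested probe sets. The code was tested on simulated data. The groups, gene lists and tests were chosen with earlier results of these data known. Named genes were the 15 largest increases and decreases among called probe sets with 1 gene name, groups not overlapping and the brighter group above the 60th percentile, up to 4 called members of each list, the uncalled members of short lists, and genes stated as singled out. One gene, CHI, was taken out of the flavonoid list after its values had been seen, because the annotation calls it a chitinase. Alternatives covered the pseudocount, filter, scaling, array weights, samples, replicate block, each array left out and the label conflict of set 14. Figures came from matplotlib 3.10.9 (Python 3.11.15).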

Additional observations from a re-analysis of the deposited data

How the results depend on the processing

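The 266 increases became 476 with a pseudocount of 1 and 80 with one 4 times larger, and the 423 decreases 511 and 284. The direction of every named gene called in the main setting held in all alternatives. Of 69 called genes that are named or listed, 53 were called in every alternative that tested them. With the pseudocount 4 times larger 16 missed the size threshold, after median scaling 4 and after quantile normalization 3. Without one of the 6 arrays, increases numbered 277 to 302 and decreases 418 to 435. Without leaf 4 replicate B the genes EXLA2 (-0.89) and TET9 (-0.87) were not called. Without leaves 1 + 2 replicate A RBL was not called (0.97), and without replicate B PUB22 was not (-0.99). No filter gave 293 increases and 426 decreases, and the filter at the 60th percentile 211 and 394. Quantile normalization gave 226 and 453, array weights 270 and 427, the 6 compared arrays alone 264 and 423, and the moved array of set 14 266 and 423.

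Arrays with the same letter did not deviate together (r of -0.04, 0.01 and -0.01), so the letters were taken as names. With the letter as a replicate block 266 probe sets rose and 423 fell, among the 6 arrays and over all arrays lettered A to C. Shares of promoters with motifs were not run, because no promoter table was used here. Dim genes, such as CML37 and TET9, are limited by signal close to background, for which the values carry no detection flag.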

Other observations

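Many gene groups of leaf biology held no called member in the setting used here. None of 31 UDP-glycosyltransferases passed, with a median difference of -0.05, nor any of 17 bZIP factors (-0.02), 16 glutathione transferases and peroxidases (0.03), 15 probe sets of nuclear genes of mitochondrial respiration (0.04), 14 sugar transporters (-0.13), 11 autophagy genes (-0.07), 8 auxin genes (-0.11) and 8 probe sets for 7 genes of starch and sucrose (0.03). After median scaling, 1 member each of the UDP-glycosyltransferase, bZIP, sugar transport and autophagy lists was called lower, and after quantile normalization 1 UDP-glycosyltransferase. The sucrose exporter SWEET11, the phloem gene measured here, was not called at -0.77 ± 0.062, with 422, 425 and 419 in leaf 4, against 743, 732 and 696 in leaves 1 + 2. Among the AP2-like repressors and other genes of the juvenile-to-adult change, SMZ had -0.64 ± 0.18, SNZ -0.21 ± 0.17, AGO7 0.40 ± 0.19 and SQN 0.75 ± 0.25, none of which passed. Another probe set of SQN was too dim to be tested, at 2.67 or less on the compared arrays. Of 3 measured clock-related genes none was called, and their differences had both signs, with -0.52 ± 0.10 for COR27, 0.33 ± 0.12 for GI and 0.48 ± 0.14 for AFR.

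Transcription factors gave single calls. MYC4, a bHLH factor of jasmonate signalling, was with SPCH 1 of 2 bHLH factors of 12 measured that rose, and it read 58, 52.1 and 66.8 in leaf 4, against 25.3, 22.5 and 31.1 in leaves 1 + 2 (1.01 ± 0.13, adjusted p = 1.6e-08 by limma). MYBC1, which is known to lower freezing tolerance, read 2.89, 1.88 and 1.20 in leaf 4, against 19.5, 9.60 and 20.4 in leaves 1 + 2 (-1.44 ± 0.20, adjusted p = 5.3e-08 by limma), so it fell, as 1 of 2 measured MYB factors. With the pseudocount 4 times larger the differences were 0.72 for MYC4 and -0.62 for MYBC1, and MYC4 was not called without leaf 4 replicate C (0.92) or without leaves 1 + 2 replicate A (0.99) or B (0.92). The locus AT1G47400 was the 1 of 4 measured iron genes that rose, with 102, 96.4 and 100.4 in leaf 4, against 49.5, 40.5 and 47 in leaves 1 + 2 (1.03 ± 0.18, adjusted p = 3.8e-06 by limma). Its difference was 0.96 without leaves 1 + 2 replicate B and 0.92 after median scaling, neither a call.

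Other genes lay at the edge of the size threshold or in other groups. The tubulin gene TUB1 read 66.5, 70.5 and 65.5 in leaf 4, against 34.2, 28.4 and 30.2 in leaves 1 + 2, without overlap, but its difference of 0.99 ± 0.12 was just short of 1. The cold-regulated dehydrin COR47 read 156, 209 and 165 in leaf 4, against 399, 332 and 341 in leaves 1 + 2, without overlap, and its decrease came to just under 1. Arrays of the groups did not overlap for 48.7% of all tested probe sets. MSRB5, a methionine sulfoxide reductase that repairs oxidised proteins, fell, with 53.6, 59 and 50.1 in leaf 4, against 206, 176 and 170.2 in leaves 1 + 2 (-1.65 ± 0.10, adjusted p = 6.1e-20 by limma). Its signal was 158, 172 and 158 in gl1T leaf 4. No gene is named for 338 of the 689 called probe sets, and these are not described.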
